A study of Mus musculus with 2 samples.

Results

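The nuclear receptor family, 46 listed genes, was examined in cells from healing mouse skin. The genes were taken by name, and a gene was measured where a probe set of the array named it alone. This held for 44 of the 46, out of 19938 genes measured in all. Nr1h2, which encodes the liver X receptor beta, and Nr2e3, a receptor of photoreceptor cells, had no probe set naming them alone and have no value here. Each of the 44 had a single probe set.

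Both samples came from skin scar tissue of TCF reporter mice, 1 week after wounding. One was labelled B-Gal positive cells and the other B-Gal negative cells, read here as cells with and without beta-galactosidase, which such reporter mice make where TCF transcription factors are active. Each group was 1 Affymetrix Mouse Gene ST array, which leaves every difference without an error and without a test. Neither the promoter and line of the reporter, nor the number of mice, nor how cells were separated is stated in the sources used here.

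Nuclear receptors are transcription factors that bind DNA through a zinc finger domain and, for many of them, a small fat-soluble ligand through a second domain. Steroid receptors act mostly as pairs of the same receptor, while the thyroid hormone, retinoic acid, vitamin D, PPAR and liver X receptors pair with a retinoid X receptor. In skin they are known for the actions of retinoids, vitamin D and glucocorticoids, and in macrophages PPAR gamma and liver X receptor alpha regulate lipid handling.

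Of the 44 genes, B-Gal positive cells had at least 2-fold higher values for 3 and at least 2-fold lower values for 5, beside 7.3% and 9.35% of all measured genes. The higher ones were Nr1h3 (liver X receptor alpha), Pparg (PPAR gamma) and Rxra (retinoid X receptor alpha), the last of which pairs with each of the other two. The lower ones were the COUP transcription factor genes Nr2f2 and Nr2f1, the retinoic acid receptor gene Rarb, the estrogen receptor gene Esr1 and the ROR gene Rorb. The remaining 36 differed by less than 2-fold or were at background on both arrays.

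Background was set by a floor, 5.59 on the log2 scale of the deposited values, the 95th percentile of 1194 olfactory and vomeronasal receptor genes. A gene was counted as different when its values differed at least 2-fold and at least 1 array lay above this floor. All measured genes here means the 18744 apart from those 1194. Among the nuclear receptor genes the shares were 6.82% higher and 11.4% lower, close to those over all genes. Of the 30 nuclear receptor genes with at least 1 array above the floor, 10% were higher and 16.7% lower, beside 9.92% and 12.7% of the 13784 genes that passed in the same way. In either direction these came to 26.7% of those members and 22.6% of those genes. When values under the floor were set to the floor, 3 members were higher and 3 lower, since Rorb and Nr2f1 left the count, beside 7.02% and 8.54% of all measured genes. After a loess fit, a smooth curve of difference against mean value, was subtracted, 2 members were higher and 6 lower, since Rxra dropped under 2-fold and Thra passed it. All measured genes also shifted towards lower, to 6.73% higher and 10.2% lower.

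Sequences before the start sites of 7 members are shown, picked by hand from the members where a searched motif matched. Matches in other members, such as Rarg, Nr1d2 and Nr2e1, are not shown. Of the 7 shown, Rarb, Nr2f2, Pparg and Rxra differed past 2-fold, and Nr4a1, Nr4a2 and Nr4a3 had values on the same side. The other members past 2-fold, Nr1h3, Esr1, Nr2f1 and Rorb, had no match to the motifs searched. Each is the 250 bases before a start site annotated by RefSeq, build GRCm38.p6, on the strand of the gene. Such windows were available for 42 of the 46 genes, 63 in all. For Rarb the capitals mark a direct repeat, GGTTCA and AGTTCA spaced by 5 bases, the form of element that retinoic acid receptors bind.
Rarb (chr14:16575477-16575726, minus strand): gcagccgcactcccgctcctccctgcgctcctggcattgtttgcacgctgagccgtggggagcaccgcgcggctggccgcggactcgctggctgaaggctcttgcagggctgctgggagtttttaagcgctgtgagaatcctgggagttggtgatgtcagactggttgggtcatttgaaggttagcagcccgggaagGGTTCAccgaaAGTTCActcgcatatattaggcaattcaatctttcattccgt
For Nr2f2 the capitals mark CTTTGAT, a form of the TCF site.
Nr2f2 (chr7:70366747-70366996, minus strand): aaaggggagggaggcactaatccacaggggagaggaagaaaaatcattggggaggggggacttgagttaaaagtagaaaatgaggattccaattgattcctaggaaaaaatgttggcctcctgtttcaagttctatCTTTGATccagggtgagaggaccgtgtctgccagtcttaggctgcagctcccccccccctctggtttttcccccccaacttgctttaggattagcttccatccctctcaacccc
In the windows of Pparg and Rxra, which have 3 and 2 annotated starts, they mark AGGTCA, the half-site that most receptors of this family recognise, on either strand. AGGTCA was not found before every start of either gene, and the window shown is the first with a match.
Pparg (chr6:115360894-115361143, plus strand): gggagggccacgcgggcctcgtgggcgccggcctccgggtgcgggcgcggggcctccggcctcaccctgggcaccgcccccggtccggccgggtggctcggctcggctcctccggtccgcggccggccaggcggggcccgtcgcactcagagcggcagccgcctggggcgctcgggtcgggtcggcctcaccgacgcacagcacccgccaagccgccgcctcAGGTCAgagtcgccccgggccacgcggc
Rxra (chr2:27709042-27709291, plus strand): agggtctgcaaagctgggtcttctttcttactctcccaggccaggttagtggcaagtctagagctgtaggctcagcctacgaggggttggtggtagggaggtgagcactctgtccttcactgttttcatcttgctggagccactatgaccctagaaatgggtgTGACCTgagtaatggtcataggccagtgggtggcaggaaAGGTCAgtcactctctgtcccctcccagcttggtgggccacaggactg
For the NR4A genes they mark TGACG, the half-site of the cAMP response element, on either strand.
Nr4a1 (chr15:101266596-101266845, plus strand): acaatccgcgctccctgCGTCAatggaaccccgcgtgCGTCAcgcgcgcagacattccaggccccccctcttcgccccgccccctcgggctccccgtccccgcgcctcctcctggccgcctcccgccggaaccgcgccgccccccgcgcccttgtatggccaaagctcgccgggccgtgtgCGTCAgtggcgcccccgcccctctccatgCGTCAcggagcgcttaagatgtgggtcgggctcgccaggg
Nr4a2 (chr2:57124004-57124253, minus strand): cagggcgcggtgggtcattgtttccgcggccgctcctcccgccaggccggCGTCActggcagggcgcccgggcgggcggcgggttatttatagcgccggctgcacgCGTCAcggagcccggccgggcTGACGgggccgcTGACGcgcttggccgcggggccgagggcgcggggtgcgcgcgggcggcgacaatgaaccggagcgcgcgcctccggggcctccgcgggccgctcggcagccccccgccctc
Nr4a3 (chr4:48045055-48045304, plus strand): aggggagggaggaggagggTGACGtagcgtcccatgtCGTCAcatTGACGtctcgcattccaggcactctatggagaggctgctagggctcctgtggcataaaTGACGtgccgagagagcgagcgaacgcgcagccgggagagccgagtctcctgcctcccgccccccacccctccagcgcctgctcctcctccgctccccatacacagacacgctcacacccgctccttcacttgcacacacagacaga

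Both strands of 32851 RefSeq windows of this length were searched. The Rarb repeat, from base -53 to -37 counted from the start, was found in 2 of them (0.00609%), 1 of which was the window of Rarb. The letters searched were the exact ones of this Rarb element, not a general form of the repeat. A match at Rarb was thus given in advance, and the share does not measure how rare such elements are. AGGTCA was found in 14% of all windows and in 17.5% of the members' windows, those of 10 genes. The second of the Rxra matches shown, from -48 to -43, lies within AAAGGTCA, the site of NR4A monomers, which 1.34% of all windows held. TGACG was found in 17.8% of all windows and in 20.6% of the members' windows, those of 13 genes. Windows with 4 or more copies made up 0.137% of all. Each NR4A window held 4. That cut equals the count in these windows, which were picked by hand, so the share does not test them. CTTTGAT and CTTTGAA, the other TCF form searched, were in 3.21% and 4.46% of all windows. Among members the first was in the window of Nr2f2 only and the second in windows of Esrrg and Nr1i2. CACGTG, the E-box of clock and other factors, was in 6.02% of all windows and in those of 5 members. A match describes letters in these windows and was not set against binding.

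**Figure D1:**
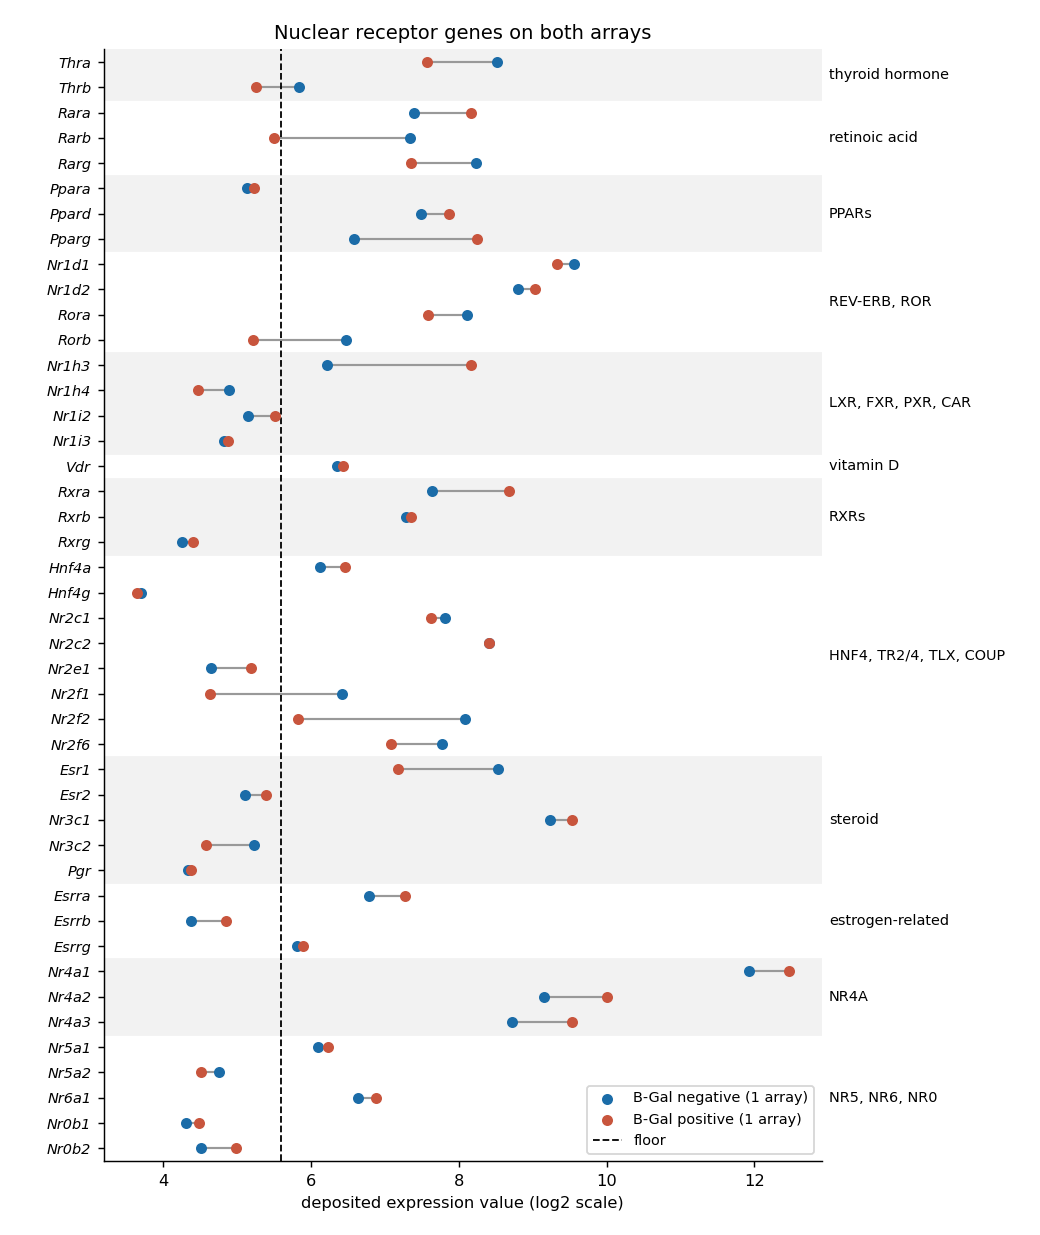
Deposited expression values (log2 scale, x axis) of the 44 measured nuclear receptor genes, grouped by kind of receptor, with 1 point for each of the 2 arrays and the floor at 5.59 as a dashed line. Values of different genes come from different probe sets, so only the 2 points of a row can be compared. Nr2f2, Nr1h3 and Rarb have wide gaps between the points, and 14 genes have both points under the floor.

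Among receptors that pair with retinoid X receptors, the liver X receptor gene Nr1h3 had the largest difference on the higher side. It encodes a sensor of oxidised cholesterol. Its log2 value was 6.22 in B-Gal negative cells and 8.17 in B-Gal positive cells, a 3.87-fold higher value in the latter. Where a pair of values follows without groups, B-Gal negative comes first. Of genes above the floor, 3.2% had a difference as large or larger. The other measured members of its group were the bile acid receptor gene Nr1h4 and the xenobiotic receptor genes Nr1i2 and Nr1i3, known mainly from liver and intestine. All 3 lay under the floor on both arrays, with log2 values from 4.47 to 5.51.

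Pparg, a receptor for fatty acid derivatives and the main regulator of fat cell formation, had log2 values of 6.58 in B-Gal negative and 8.25 in B-Gal positive cells. The second value was 3.18-fold the first. Ppard, its widely expressed relative, was at 7.49 and 7.86, a difference of 0.37. Ppara, the fatty acid oxidation receptor known from liver, was under the floor on both arrays at 5.13 and 5.23. The gap between the differences of Pparg and Ppard was 1.30 on the log2 scale, so the PPAR genes that were above the floor differed unequally.

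Rxra was at 7.64 and 8.68, a value 2.06-fold higher in the B-Gal positive sample and just past the threshold. Its difference was 1.04 as deposited, and it lay at 0.93 to 1.06 over the 6 processing alternatives. Rxrb, which encodes another partner of the same kind, was at 7.28 and 7.35, nearly level between the arrays. Rxrg, known from muscle and brain, was under the floor at 4.26 and 4.40.

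Retinoic acid receptor genes went in different directions. Rarb, which retinoic acid itself induces, was at 7.34 in B-Gal negative cells and at 5.49, under the floor, in B-Gal positive cells. Against the floor this is at least 3.37-fold lower. Rarg, the main receptor of epidermis, was at 8.24 and 7.35, or 1.84-fold lower in B-Gal positive cells. Rara, the widely expressed receptor, was instead 1.71-fold higher, at 7.39 and 8.17. The differences of Rara and Rarg were 1.66 apart on the log2 scale. Both Rarg and Rara stayed short of 2-fold.

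The thyroid hormone receptor gene Thra was at 8.52 and 7.57, or 1.93-fold lower in B-Gal positive cells and just short of the threshold. With the loess fit its difference was -1.01 in place of -0.94. Thrb was close to background, at 5.84 and 5.26, at least 1.19-fold lower against the floor. The vitamin D receptor gene Vdr, active in keratinocytes and hair follicles, was at 6.36 and 6.43, a difference of 0.07 that turned to -0.02 with the loess fit.

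REV-ERB receptors repress and ROR receptors activate the same clock genes. Nr1d1 (REV-ERB alpha) was at 9.56 and 9.33 and Nr1d2 (REV-ERB beta) at 8.80 and 9.03, differences of -0.23 and 0.24. Neither moved past 1.18-fold. Rora, an activator with roles in lymphoid and myeloid cells, was 1.44-fold lower in B-Gal positive cells, at 8.11 and 7.58. Rorb, known from retina and brain, was at 6.48 in B-Gal negative cells and at 5.21, under the floor, in B-Gal positive cells. Its difference as deposited was -1.27, but against the floor it was at least 1.86-fold lower, so its place past 2-fold rests on a value at background. Thra and Nr1d1 overlap each other in RefSeq and are transcribed from opposite strands. The sources used here do not say whether their probe sets read 1 strand.

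Some of these genes are chromosomal neighbours, in the order of the RefSeq gene table. Rarb and Thrb had 0 other protein-coding genes between them, and Thrb and Nr1d2 had 1. Along this cluster the differences were -1.85, -0.58 and 0.24. Thra and Nr1d1 overlap, and 5 other genes lie between Nr1d1 and Rara. Thra, Nr1d1 and Rara had differences of -0.94, -0.23 and 0.78. Thra and Rara thus had opposite signs within their cluster. In the Rarb cluster only Nr1d2 had the other sign. Its difference of 0.24 is close to level, beside a median of 0.28 over the olfactory and vomeronasal receptor genes.

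The COUP transcription factor gene Nr2f2 had the largest difference on the lower side. It encodes COUP-TFII, a receptor of mesenchymal, venous and lymphatic cells. It was at 8.09 in B-Gal negative and 5.82 in B-Gal positive cells. The latter value was 4.82-fold lower, and 4.66% of genes above the floor were as low or lower. As deposited, Nr2f2 was the sole member past 4-fold. Its B-Gal positive value lay only 0.23 above the floor, so the size of the fold is uncertain. With an offset of 32 on the linear scale its difference was -1.78, under 4-fold. Nr2f1 (COUP-TFI), a factor of neural crest and mesenchyme, was at 6.42 and 4.64. Its difference of -1.78 is against a value under the floor, and it was at least 1.78-fold lower against the floor itself. Nr2f6, another relative, was 1.62-fold lower, at 7.77 and 7.08. All 3 COUP genes were thus lower on the B-Gal positive array.

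Others of that subfamily hardly differed. The testicular receptor genes Nr2c1 and Nr2c2, widely expressed orphan receptors, had differences of -0.19 and -0.01, from 7.81 to 7.63 and from 8.41 to 8.40. Hnf4a, a liver and gut receptor, was at 6.12 and 6.46, less than 1 unit above the floor on both arrays. Hnf4g and the brain receptor gene Nr2e1 lay under the floor, between 3.64 and 5.19.

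Among steroid receptors, Esr1 differed past 2-fold. It encodes estrogen receptor alpha, was at 8.53 and 7.18, and was 2.55-fold lower in B-Gal positive cells. Both values lay at least 1.59 above the floor. The glucocorticoid receptor gene Nr3c1, which nearly all cells express, was at 9.24 and 9.53, a difference of 0.29. Esr2, the mineralocorticoid receptor gene Nr3c2 and the progesterone receptor gene Pgr were under the floor on both arrays, at 4.33 to 5.40. Their differences compare background values and have no direction.

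The estrogen-related receptors bind DNA without a known natural ligand, and Esrra acts on mitochondrial genes. Esrra was at 6.79 and 7.27, 1.40-fold higher in B-Gal positive cells. Esrrg was near the floor, at 5.80 and 5.89, and Esrrb under it, at 4.38 and 4.85.

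NR4A receptors are induced within minutes to hours by many stimuli, like Fos and Egr1, and act without a known classical ligand. All 3 were higher on the B-Gal positive array and none reached 2-fold. Nr4a1 (Nur77) was at 11.9 and 12.5, or 1.45-fold higher. Nr4a2 (Nurr1) was at 9.16 and 10.01, and Nr4a3 (Nor1) at 8.72 and 9.53, 1.81-fold and 1.75-fold higher. Their median difference, 0.81 as deposited, was the highest of the 12 receptor groups. That ranking counts members under the floor on both arrays, which several of the other groups hold. Each NR4A gene lay at least 3.13 above the floor on both arrays, and none changed direction under the 6 processing alternatives. Of these, the mean over probe sets and raising values to the floor could not alter the NR4A values.

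The remaining receptors stayed near or under the floor. Nr5a1 (steroidogenic factor of adrenal and gonad) was at 6.09 and 6.23, and Nr6a1, a germ cell and embryonic receptor, at 6.64 and 6.88. Nr5a2 and the receptors without a DNA-binding domain, Nr0b1 and Nr0b2, lay between 4.30 and 4.98. In all, 26 members were above the floor on both arrays, 4 (Thrb, Rarb, Rorb and Nr2f1) in B-Gal negative cells alone, and 0 in B-Gal positive cells alone. Of all measured genes, 4.12% were above it in B-Gal negative cells alone and 4.96% in B-Gal positive cells alone. The other 14 measured members were under it on both arrays.

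**Figure D2:**
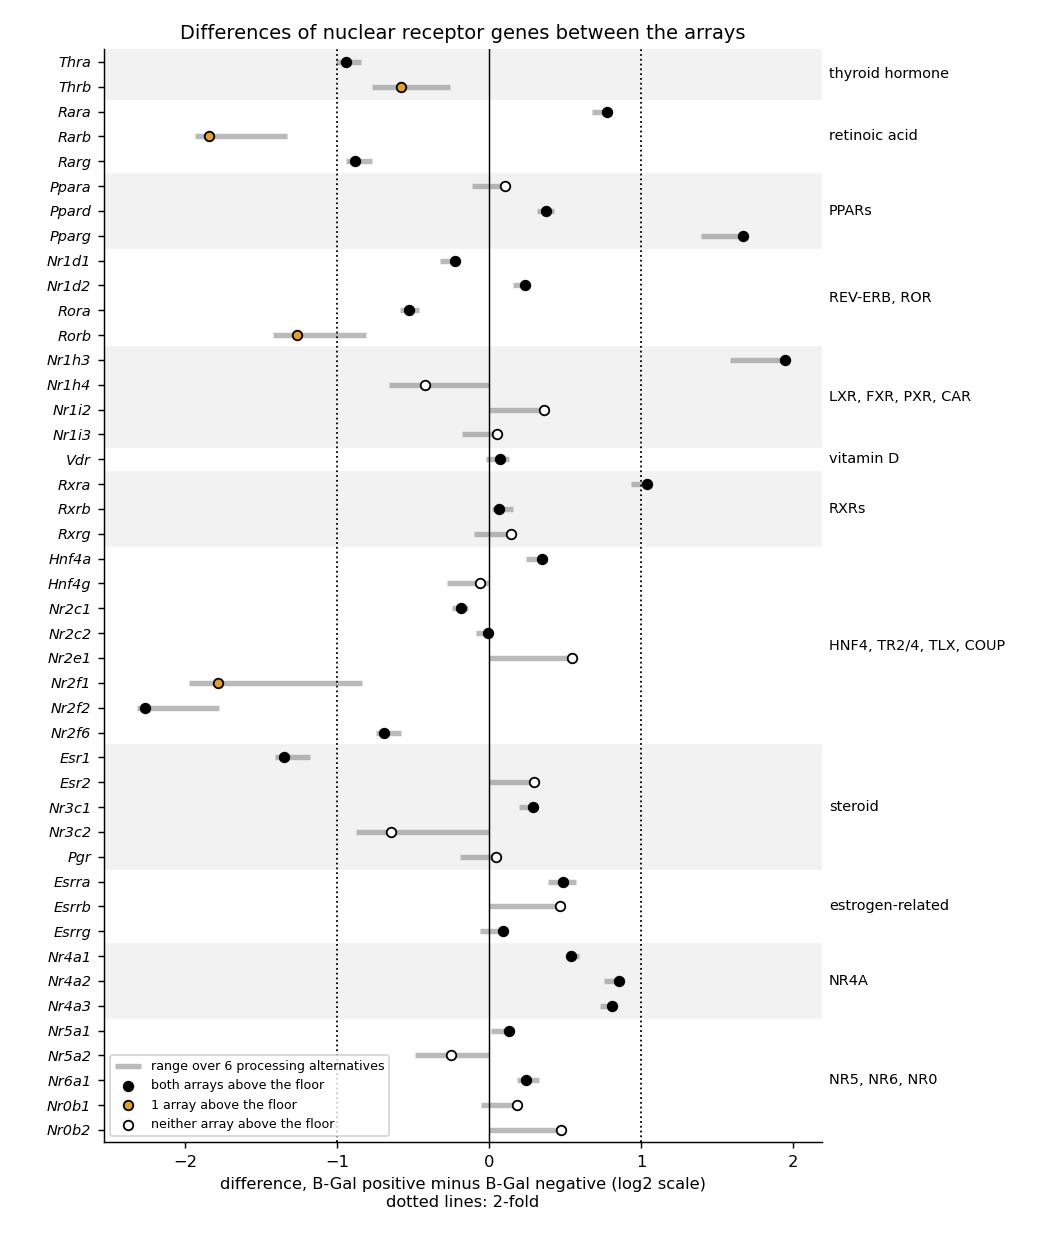
Difference of each measured nuclear receptor gene, B-Gal positive minus B-Gal negative (log2 scale, x axis), with the fill of the point giving how many arrays lay above the floor and grey bars the range over 6 processing alternatives. Pparg and Nr1h3 stay past the dotted 2-fold line throughout, as do Rarb, Nr2f2 and Esr1, while Rxra, Rorb, Nr2f1 and Thra have bars that cross it.

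Differences of the 44 genes ran from -2.27 to 1.95, with a median of 0.10 beside 0.11 over all measured genes. Of the 30 members with at least 1 array above the floor, 17 had a higher value in the B-Gal positive sample and 13 a lower one. The shares, 56.7% and 43.3%, lay beside 53.9% and 45.5% of all genes above the floor. The median depended on the scaling: with quantile normalization the median was -0.00036 and with the loess fit -0.06, beside 0.04 and -0.03 over all genes. The median size of a difference, regardless of direction, was 0.45 among members and 0.37 among all genes.

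**Figure D3:**
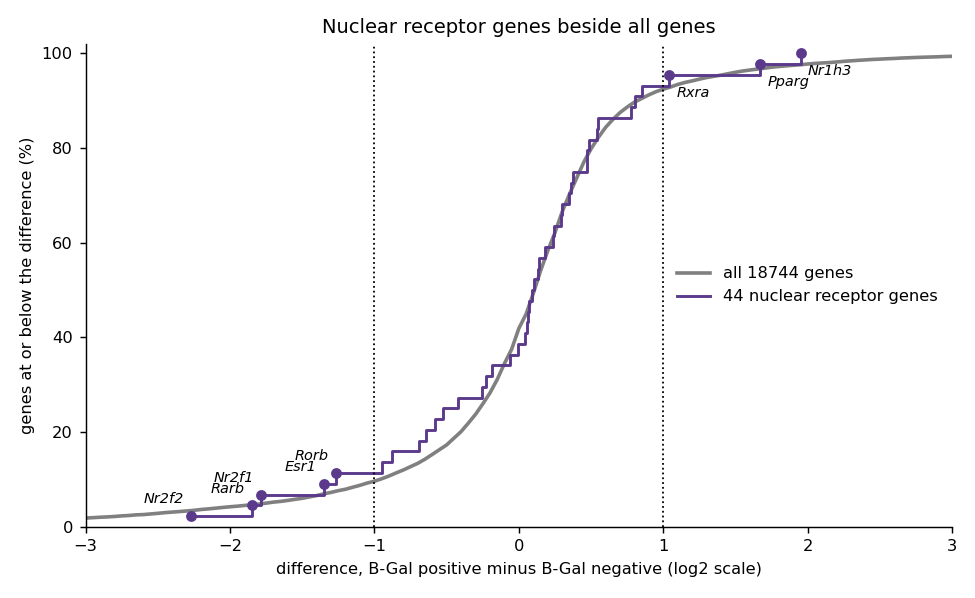
Share of genes (%, y axis) at or below each difference, B-Gal positive minus B-Gal negative (log2 scale, x axis), for the 44 nuclear receptor genes as steps and for 18744 genes as a grey line, with the 8 members past 2-fold named. The steps follow the grey line in the middle, and no member lies beyond -2.27 or 1.95, where the grey line goes on.

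Genes that receptors regulate or work with were read from 12 lists, each beside the same shares over all genes given above. Among 13 measured liver X receptor targets, 8 were past 2-fold upwards and 0 downwards, and their median was 1.95. Apoe, an apolipoprotein that carries cholesterol, was 9.1-fold higher, at 10.7 and 13.8. The cholesterol exporter gene Abca1 was 5.72-fold higher, Pltp, a phospholipid transfer protein gene, 7.18-fold, and Mertk, a receptor for dying cells, 8.45-fold. Without Nr1h3, itself on the list, the median was 1.81. Macrophages are a main site of expression of several of these genes, and all 13 macrophage markers were higher on the same array. Their part in the result was not tested.

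PPAR targets went both ways. Of 19 measured, 3 were higher and 3 lower, around a median of 0.08 that turned to -0.04 with quantile normalization and -0.02 with the loess fit. The fatty acid transporter gene Cd36 was 13.8-fold higher, while Vldlr, a lipoprotein receptor gene, and Angptl4, an inhibitor of lipoprotein lipase, were 8.63-fold and 7.56-fold lower. The remaining lower target was close to background, at least 1.09-fold lower against the floor. Fabp4, a fatty acid carrier of fat cells and macrophages, was 1.36-fold lower.

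Of 10 measured retinoic acid targets, 4 were lower and 2 higher. Their median was -0.67 as deposited, -0.41 with an offset of 32 on the linear scale and -0.84 with the loess fit. Rarres2, the chemerin gene, was 19.8-fold lower and Crabp2, which carries retinoic acid to the nucleus, 3.77-fold lower. Rarb, with the repeat shown above, was the third by size. Among 12 estrogen and progesterone targets, 3 were lower and 0 higher, with a median of -0.53. These were the growth factor binding protein gene Igfbp5 (12-fold), the chemokine gene Cxcl12 (8.1-fold) and Ccn5 (4.72-fold), all also products of fibroblasts.

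Of 18 glucocorticoid targets, 7 were lower and 3 higher, with a median of -0.42, while Nr3c1 differed by 0.29. Established targets differed in direction. Tsc22d3, which encodes the anti-inflammatory protein GILZ, was 2.92-fold higher, and Fkbp5, a chaperone that restrains the receptor, was 2.21-fold lower. The haemoglobin scavenger receptor gene Cd163, also a macrophage marker, was at least 30.9-fold higher. Lcn2, an iron-binding protein gene, and the metallothionein gene Mt2 were 5.76-fold and 4.03-fold lower. The vitamin D list had 10 targets, of which Cyp24a1 and Spp1 had no value here. Of the 8 measured, 1 was higher, the endotoxin co-receptor gene Cd14 (4.25-fold), and 0 lower. Their median was 0.08 as deposited and -0.09 with the loess fit. Camp, an antimicrobial peptide gene, was at least 1.6-fold higher against the floor, and Tnfsf11, the RANK ligand gene, 1.37-fold lower.

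Clock genes, only some of which are targets of REV-ERB and ROR receptors, had a median of 0.20 over 17 genes. Of these 1 was lower, the clock repressor gene Cry2 (2.51-fold), and 1 higher, the repressor gene Bhlhe41 (2.11-fold). Arntl, which encodes BMAL1, differed by 0.23, Per1 by 0.61 and Ciart, another repressor, by 0.79. Immediate early genes, induced like the NR4A genes, had a median of 0.36 over 22 genes, with 1 higher and 0 lower. Maff, a small MAF factor gene, was the higher one (2.6-fold). Egr3 and Fosl1 were 1.83-fold and 1.82-fold lower, and Fos and Egr1 differed by 0.07 and -0.08.

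Of 18 coactivators and bridging factors, 4 were higher and 2 lower, with a median of 0.40. The coactivator genes Ncoa4, Ncoa3 and Ncoa1 were 2.74-fold, 2.51-fold and 2.21-fold higher, and Carm1, an arginine methyltransferase gene, was 2.61-fold lower. Among 13 measured corepressors 0 passed 2-fold, with a median of 0.24. The ligand-dependent corepressor gene Lcor was 1.69-fold higher, Tbl1xr1, a subunit of a corepressor complex, 1.56-fold higher and the deacetylase gene Hdac7 1.54-fold lower. Nrip1, another corepressor gene, was 1.3-fold lower.

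Receptor chaperones had a median of -0.35 over 10 genes, with Fkbp5 lower and 0 higher. Hsp90b1 and Dnajb1, genes of heat shock proteins, were 1.47-fold and 1.41-fold lower. Hormone metabolism genes had a median of 0.17 over 19 genes, or 0.03 with quantile normalization, with 2 higher and 1 lower. Slc16a10, a transporter of aromatic amino acids and thyroid hormone, was 4.69-fold higher, and Hsd17b11, a steroid dehydrogenase gene, 2.3-fold. Hsd11b1, whose enzyme regenerates active glucocorticoid, was at least 2.89-fold lower. The deiodinase gene Dio2 was under the floor on both arrays.

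**Figure D4:**
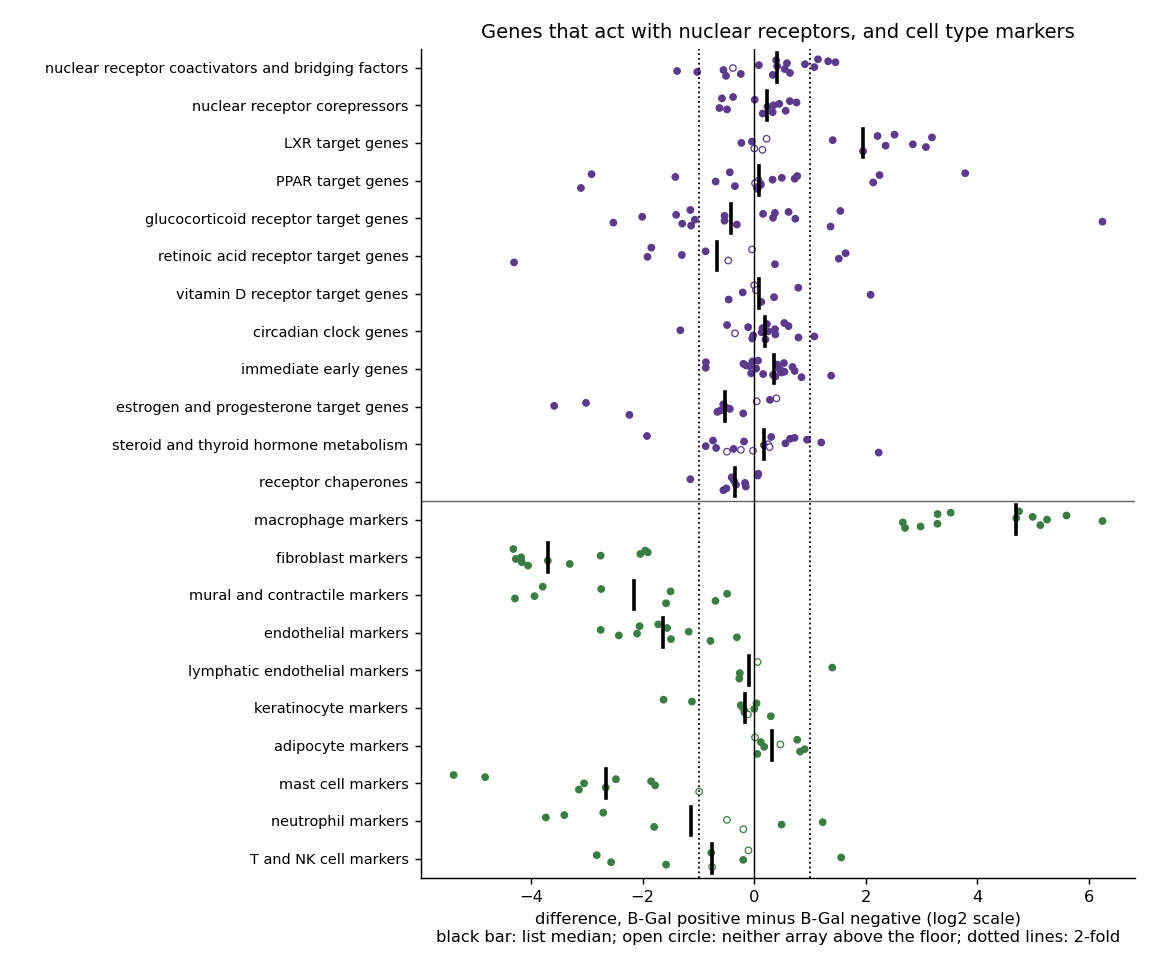
Differences, B-Gal positive minus B-Gal negative (log2 scale, x axis), of each gene on 12 lists around the nuclear receptors (purple) and 10 cell type marker lists (green), with the list median as a black bar and open circles for genes under the floor on both arrays. The liver X receptor targets have a median of 1.95, and the macrophage and fibroblast markers medians of 4.70 and -3.70.

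Markers of several cell types differed between the same arrays, and in bulk RNA fewer cells of a type and less RNA per cell cannot be told apart. Of 13 macrophage markers 13 were higher, with log2 values from 4.29 to 10.8 in B-Gal negative and from 10.03 to 13.5 in B-Gal positive cells, and 2 of them under the floor in the former. Mrc1, the mannose receptor gene, was 48.5-fold higher. Of 11 fibroblast markers 11 were lower, from 9.1 to 14 in B-Gal negative and from 5.79 to 12 in B-Gal positive cells, all above the floor on both arrays. Pdgfra and Dpt were 19.99-fold and 19.4-fold lower. Of 10 endothelial markers 8 were lower, among them Tek (6.74-fold) and Ramp2 (5.38-fold), and of 8 mural and contractile markers 6 were, including Pdgfrb (19.6-fold) and Rgs5 (15.4-fold).

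Of 9 mast cell markers 8 were lower, with Cpa3 at least 10.2-fold and Mcpt4 at least 8.21-fold. Among 8 neutrophil markers 4 were lower and 1 higher, and Cxcr2 and S100a9 were lower by at least 4.71-fold and by 10.6-fold. The higher neutrophil marker was at least 1.56-fold higher against the floor. Of 8 T and NK cell markers 3 were lower and 1 higher, and Cd3g and Il2rb were at least 3.42-fold and 4.36-fold lower. The remaining lower one was close to background, at least 1.03-fold lower against the floor. Of 10 keratinocyte markers 2 were lower, Krt5 by at least 2.88-fold and Krt14 by 2.17-fold. Lymphatic endothelial markers had 1 of 4 higher, Lyve1 (2.64-fold), also a macrophage gene, while Flt4 was near the floor, at least 1.12-fold lower against it. No adipocyte marker passed 2-fold, and Adipor2 and Lipe were 1.87-fold and 1.77-fold higher. Pparg, Nr1h3 and Rxra were higher on the array where macrophage markers were higher. On that array Nr2f2, Nr2f1, Rarb, Esr1 and Rorb were lower. So were all fibroblast markers and most endothelial, mural and mast cell markers. Some neutrophil, T and NK cell and keratinocyte markers were lower there too. The part of any of these cell types in the receptor values was not tested.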

How the data were processed

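The labels give total RNA as the extracted material and biotin as the label, with 1 array for each of the 2 samples. The deposited table gives 1 value per probe set and array, used as log2 values. That scale was inferred from their range of 1.16 to 14.8, and folds depend on it. The submitters' processing notes name Partek. The sources used here state no normalization, log base or software version.

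Of 28853 probe sets, 21789 named 1 gene in the platform annotation, 1621 named several and 5443 were not listed. Gene IDs of 21698 matched RefSeq (GRCm38.p6), which changed 0 symbols. For the 999 genes with several probe sets, the one with the highest mean was used. Differences are B-Gal positive minus B-Gal negative, with no added scaling. Where 1 array lay under the floor, folds are given against the floor as at least that size. Both values under the floor give no fold. No p-value was computed, and the number of arrays limits the precision.

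Members, lists and rules were chosen with earlier results of these data known. All members are named. From each list up to 3 genes (2 for cell types) with the largest difference were named, and 16 fixed ones. Alternatives were median centring, quantile normalization, a loess fit (span 0.4), an offset of 32, raising values to the floor, the mean over probe sets, other filters, and thresholds of 1.5-fold and 4-fold. Python 3.11.15 with pandas 2.3.3 and statsmodels 0.14.6 was used.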

Additional observations from a re-analysis of the deposited data

How the results depend on the processing

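When values under the floor were set to the floor, 3 members were at least 2-fold lower in place of 5, as Rorb and Nr2f1 have their B-Gal positive value under the floor. With the threshold at 1.5-fold, 6 members were higher and 8 lower, beside 13.8% and 14.8% of all measured genes. At 4-fold, 0 were higher and 1 lower, beside 2.21% and 4.2%. Under the offset of 32 on the linear scale 2 were higher and 4 lower, beside 6.02% and 7.33% of all measured genes, and with the mean of both arrays required above the floor 3 and 4, beside 7.15% and 8.78%. Centring, quantile normalization, the floor at the 99th percentile and no filter each left 3 higher and 5 lower, the 8 genes named in the report. The mean over probe sets gave the same counts, but could not change a member's value, as each member had a single probe set. The median over members lay between -0.06 and 0.12 over the alternatives. The loess fit moved the median of all genes from 0.11 to -0.03. Directions of 13 gene and setting pairs changed with a scaling. Among genes above the floor these were Nr2c2 (0.01 with centring), Vdr (-0.02) and Esrrg (-0.06, both with the loess fit), and 0 of the 8 genes past 2-fold changed direction. The list medians without nuclear receptor and marker genes, an alternative chosen after seeing the data, were 1.81 for liver X receptor, 0.07 for PPAR, -0.53 for glucocorticoid, -0.47 for retinoic acid and -0.56 for estrogen and progesterone targets. No paired analysis was possible because each group has 1 array, and leaving out a replicate was not possible for the same reason.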
